A study of Mus musculus with 4 samples.

Results

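*Cdkn1a*, *Btg2*, *Gadd45a*, *Gtse1*, *Plk2* and *Plk3* are 6 genes through which p53 is known to slow or stop the cell cycle after DNA damage. They were taken by name, and every listed p53 peak whose centre lay within 50 kb of any of their annotated transcription start sites (TSSs) was assigned to them. This gave 15 peaks of the 7384 in the list. The list combines 3 libraries of chromatin immunoprecipitation with an antibody against p53 followed by sequencing (ChIP-Seq), made from Ba/F3 cells without treatment, from Ba/F3 cells given 3 Gy and taken 3 h later, and from HPC7 cells without treatment. Ba/F3 is a mouse B cell progenitor line that grows with interleukin-3. HPC7 is a mouse line used as a model of early blood progenitors, made by forcing *LH2* on in embryonic stem cells. Neither line carries mutant p53. All of these cells, the untreated ones included, stably carried mouse MYSM1 with a triple-FLAG tag and were grown under puromycin. Each condition had 1 library and the list is common to them, so irradiated and untreated cells, or the cell lines, cannot be compared with replicate error, and the peak file used here does not name the library in which a peak was called. That file holds no counts, heights or p-values, so the depth behind each peak is unknown from it, and the identity of the cells could not be checked against marker genes.

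p53 binds DNA as a tetramer, at sites made of a pair of decamers that each hold a C and a G around an A/T-rich core, flanked by purines before and pyrimidines after. In damaged cells it raises transcription of genes that act at successive steps of the cycle. p21, the product of *Cdkn1a*, inhibits cyclin-dependent kinases and is the best known effector of arrest at the border of G1 and S. *Btg2* encodes an antiproliferative protein that works through mRNA deadenylation, *Gadd45a* a stress protein that interacts with p21 and PCNA and hinders the kinase of G2/M, and *Gtse1* a microtubule-binding protein of S and G2 that binds p53 and p21. *Plk2* and *Plk3* encode polo-like kinases, the first known for centriole duplication and the second for stress signaling.

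Peaks of the list are numbered by how much p53 binding changed after irradiation, from the largest fold change at number 1 to the smallest at number 7384. Ba/F3 was the only line irradiated, so this order and its classes concern Ba/F3 and not HPC7. The study divided this order into peaks with increased, little changed and reduced binding, and these classes, whose limits follow from the class sizes the study states and were not derived again, are given in words beside each number. The number is the only value of binding in the list, so it was read as a place in an order and not as an amount. Of the 15 peaks near the arrest genes, 10 were classed as increased, 3 as little changed and 2 as reduced, while these classes hold 89.9%, 2.17% and 7.90% of all peaks. A p53 site, that is a pair of adjoining decamers with at most 3 mismatches to the consensus in 20 positions and both C and G cores intact, was found within 100 bp of the centre of 6 of the 15 peaks. Over all peaks the share was 54.5% (4021 of 7384, 95% Wilson interval 53.3% to 55.6%), and over windows 10 kb before the peaks it was 1.03%.

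Of the 15 peaks, 4 had a site with exactly 1 mismatch (17.8% of all peaks), 1 had 2 (16.8%), 1 had 3 (13.7%) and 0 had a site without a mismatch (6.15%), so that at most 1 mismatch was found in 4 of 15, against 24.0%. The 6 sites are shown because they are the stretches of these peaks that match the p53 consensus, and because they differ in how close they come to it. They are written 5′ to 3′ on the plus strand of mm9, with the C and G of both cores in capitals. The consensus reads the same on both strands.
*Cdkn1a* promoter, chr17:29227873-29227892, 1 mismatch: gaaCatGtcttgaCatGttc
*Cdkn1a* upstream, chr17:29215984-29216003, 1 mismatch: aggCaaGcccgggCaaGgcc
*Cdkn1a* intron 1, chr17:29231443-29231462, 3 mismatches: gatCgtGcctgggCacGtcc
*Btg2* upstream, chr1:135997691-135997710, 1 mismatch: gaaCaaGcccgggCttGatc
*Gtse1* promoter, chr15:85690375-85690394, 1 mismatch: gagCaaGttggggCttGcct
*Plk2* upstream, chr13:111183090-111183109, 2 mismatches: caaCatGcccgggCttGcat
Between the C and the G, both cores of 5 of these sites hold only A and T, while the intronic *Cdkn1a* site has a G in one core and a C in the other. In 5 of the 6 peaks the middle of the site lay at most 7.5 bp from the peak centre, and in *Gtse1* it lay 33.5 bp from it.

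**Figure D1:**
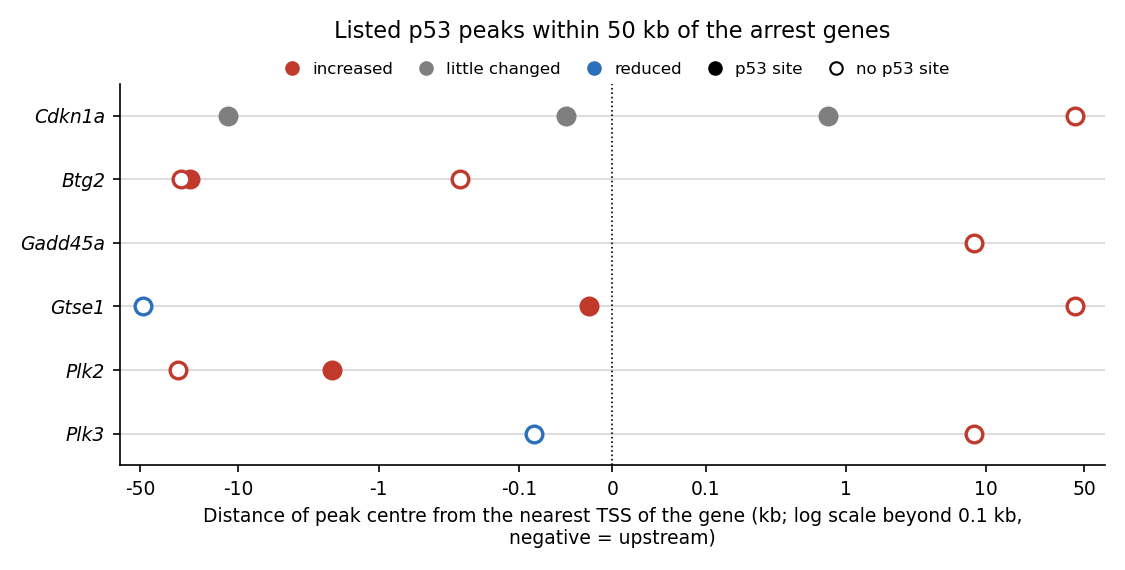
Each point is a listed p53 peak, placed by the signed distance of its centre from the nearest TSS of the gene in kb (log scale beyond 0.1 kb, negative values upstream), with colour for the class of binding change and filling for a p53 site. *Cdkn1a* has 3 little changed peaks with a site, *Plk3* has a reduced peak at its promoter, and the other peaks with a site are at *Btg2*, *Gtse1* and *Plk2*.

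All 6 genes had a peak within 50 kb, against 40.4% of the 22380 annotated genes that code for protein (9035 genes, 95% Wilson interval 39.7% to 41.0%). Within 20 kb and within 10 kb all 6 still had a peak, against 23.0% and 15.6%, within 5 kb 5 of the 6 had one, against 10.7%, and within 1 kb 4 of the 6, against 6.13%. Wider limits separated them less from other genes, since 57.8% of protein-coding genes had a peak within 100 kb and 75.1% within 200 kb. *Gtse1*, *Cdkn1a*, *Plk3* and *Btg2* had their nearest peak at 25, 49, 84 and 264 bp from a TSS, *Plk2* at 2151 bp and *Gadd45a* at 8156 bp. Several peaks at a gene were also common in the group, since 5 of 6 had 2 or more peaks within 50 kb, against 14.3% of protein-coding genes, and 3 of 6 had 3 or more, against 4.25%. A peak with a site lay within 50 kb of 4 of the 6 (*Cdkn1a*, *Btg2*, *Gtse1* and *Plk2*), against 22.5%, and within 10 kb of 3, against 6.40%. An increased peak lay within 50 kb of all 6, against 36.2%, and within 10 kb of 5, against 12.4%. A reduced peak lay within 50 kb of *Gtse1* and *Plk3*, against 7.11%. The genes were named for their known link to p53 and with earlier results of these data known. Their shares are not independent of the list, and shares of 6 genes are given as a description without a test. Of the 15 peaks, 8 had the arrest gene as the nearest protein-coding TSS and lay up to 11929 bp from it, and 7 lay nearer to another gene. The peak farthest inside the limit of 50 kb was at 48035 bp and the nearest outside it at 62019 bp.

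**Figure D2:**
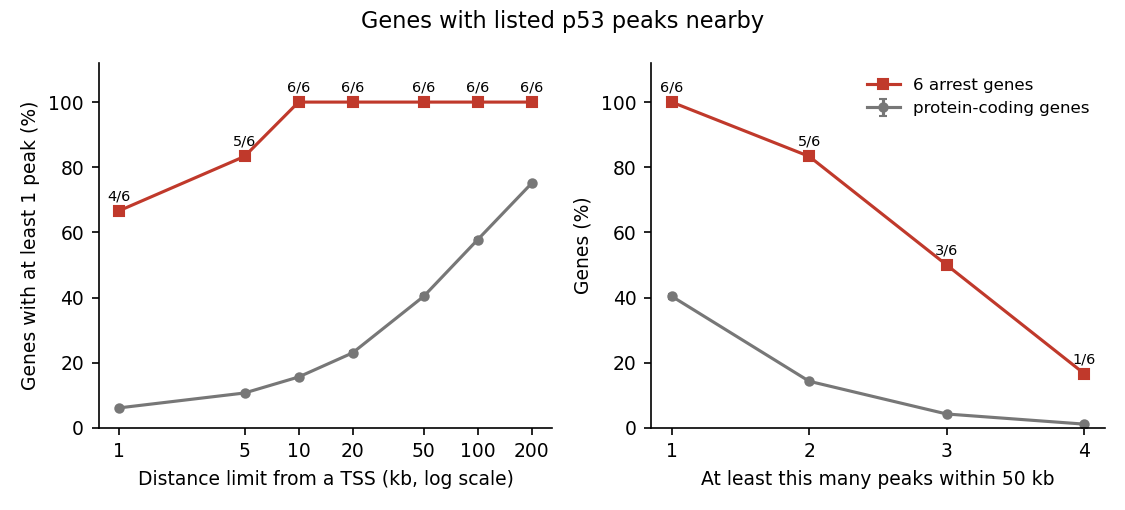
Percent of genes with at least 1 listed peak against the distance limit in kb on a log scale (left), and percent of genes with at least the stated number of peaks within 50 kb (right), for the 6 arrest genes (squares, with counts) and for 22380 protein-coding genes (circles, with 95% Wilson intervals, mostly smaller than the symbol). All 6 arrest genes have a peak within 10 kb, where 15.6% of protein-coding genes do.

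*Cdkn1a* occupies chr17:29227924-29237667 of mm9 on the plus strand, with 3 annotated transcripts that start at 29227924, 29230717 and 29235152. It had 4 peaks within 50 kb, the most of the 6 genes, and 1.14% of protein-coding genes had 4 or more. The nearest, chr17:29227826-29227925, had its centre 49 bp upstream of the first of these TSSs and 2842 bp upstream of the second, and held the site with 1 mismatch. Its number was 6703, so 90.8% of all peaks had a larger fold change after irradiation. The 98 bp of this peak that precede the TSS are shown with the site in capitals.
*Cdkn1a* promoter peak, chr17:29227826-29227923: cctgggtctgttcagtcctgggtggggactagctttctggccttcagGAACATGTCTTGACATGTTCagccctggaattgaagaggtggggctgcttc
A further decamer without a mismatch stood 12 bases before the site, so that the first decamer of the site also formed a spaced pair with 0 mismatches, at chr17:29227851-29227882. Its letters were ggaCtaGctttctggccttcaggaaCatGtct, with the cores in capitals.

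The second *Cdkn1a* peak, chr17:29231407-29231506, lay in intron 1 of the transcript that starts at 29230717, with its centre 739 bp downstream of that TSS. It had number 6670 and the weakest of the 6 sites, with 3 mismatches.
*Cdkn1a* intron 1 peak, chr17:29231407-29231506: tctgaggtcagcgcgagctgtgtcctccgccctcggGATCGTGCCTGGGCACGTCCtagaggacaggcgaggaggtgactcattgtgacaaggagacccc
The third, chr17:29215946-29216045, was 11929 bp upstream of the first TSS, between genes, with number 6669 and a site with 1 mismatch.
*Cdkn1a* upstream peak, chr17:29215946-29216045: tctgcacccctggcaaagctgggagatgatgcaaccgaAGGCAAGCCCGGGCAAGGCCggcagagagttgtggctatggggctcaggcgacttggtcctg
These 3 peaks, numbers 6669, 6670 and 6703, were all classed as little changed. They stood 28, 29 and 62 places after the last peak classed as increased, so their class rests on a limit that is close to them in the order. A peak classed as little changed was found within 50 kb of 1 of the 6 arrest genes, *Cdkn1a*, against 1.54% of protein-coding genes, and within 10 kb of the same gene, against 0.554%. With the limit of 50 kb, and also with 20 kb, *Cdkn1a* was the only gene with 3 or more of them (1 of 22380 genes, 0.00447%). With 10 kb 0 genes had 3, and with 100 kb 6 had 3. The cut of 3 is the number at *Cdkn1a* itself and was added after the data were seen, so this count is a description only. When the class was widened by 100 places at either end, 3 genes had as many, and a narrower class was not tried. A site was present in all 3 peaks, against 35.6% of the little changed peaks of the list (57 peaks, interval 28.6% to 43.3%). Whether these positions were occupied before irradiation cannot be read from a place in the order.

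The remaining *Cdkn1a* peak was of the opposite kind. It lay 42655 bp downstream of the last *Cdkn1a* TSS, at chr17:29277758-29277857, in intron 3 of *Rab44*, whose TSS was 4524 bp away. Its number was 356, with 4.81% of peaks showing a larger fold change, and it was classed as increased. No adjoining pair of decamers within the limit was found in it, the closest having 7 mismatches.

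*Btg2* (chr1:135971747-135975697, minus strand) has 1 annotated TSS and had 3 peaks, all classed as increased. The promoter peak, chr1:135975912-135976011, was centred 264 bp upstream of the TSS with number 1317 of 7384, and 17.8% of peaks had a larger fold change. Its closest adjoining pair of decamers had 8 mismatches, and the sequence was rich in G and C (66.2% within 100 bp of the centre) with a CpG ratio (observed to expected) of 0.73. It is shown because it is a promoter peak in the increased class without a site.
*Btg2* promoter peak, chr1:135975912-135976011: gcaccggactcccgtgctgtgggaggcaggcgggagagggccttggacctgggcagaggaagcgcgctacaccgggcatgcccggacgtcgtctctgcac
The other 2 peaks lay 22001 and 25603 bp upstream of *Btg2*, both nearer to the predicted gene *Gm8618*. The first of them, chr1:135997649-135997748, had number 5379 and the site with 1 mismatch printed above. The second, chr1:136001251-136001350, had number 62, the smallest of the 15, so that 0.826% of peaks had a larger fold change, and no adjoining pair within the limit (4 mismatches).
*Btg2* upstream peak with a site, chr1:135997649-135997748: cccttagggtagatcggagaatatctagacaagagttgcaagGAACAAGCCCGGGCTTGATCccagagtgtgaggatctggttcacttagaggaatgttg
The neighboring upstream peaks of *Btg2* therefore stood far apart in the order, at 62 and 5379, although both were in the increased class.

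*Gadd45a* (chr6:66985090-66987451, minus strand) had a single peak within 50 kb. A p53 site in an intron of the human gene is well described, but no listed peak fell inside the mouse gene, and the search found 0 sites with at most 3 mismatches between its ends. The peak, chr6:66978975-66979074, was 8156 bp downstream of the nearest TSS and beyond the 3′ end of the gene, and its nearest protein-coding TSS was that of *Gadd45a*. It had number 983 and was classed as increased, with 13.3% of peaks above it in fold change. No adjoining pair of decamers with intact cores was found in its window, whereas the letters in the middle of the peak held a pair with 1 base between the decamers, described further on.
*Gadd45a* downstream peak, chr6:66978975-66979074: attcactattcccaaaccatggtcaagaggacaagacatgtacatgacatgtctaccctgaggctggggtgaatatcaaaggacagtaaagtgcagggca

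*Gtse1* (chr15:85690137-85707002, plus strand) had 3 peaks within 50 kb, and the nearest was, of all 15, the closest to a TSS of an arrest gene. This peak, chr15:85690302-85690401, was centred 25 bp upstream of the TSS at 85690376 and 214 bp downstream of the other, at 85690137, in intron 1 of the transcript that starts there. It had number 2798, near the middle of the increased class, and its site with 1 mismatch covered the TSS at 85690376. A further decamer followed the site after 1 base, so that the second decamer of the site formed another pair with 1 mismatch, gggCttGcctctgaCttGcct. Of the other *Gtse1* peaks, one lay 42937 bp downstream in an exon of *Celsr1* and 8002 bp from the TSS of *Trmu*, with number 640 in the increased class and no site (10 mismatches). The other was centred 13 bp upstream of the annotated TSS of *2210021J22Rik*, 48035 bp from *Gtse1*, with number 7089 in the reduced class and no site (8 mismatches). Both of these distant peaks were thus nearer to other genes.

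*Plk2* (chr13:111185252-111191052, plus strand) had 2 peaks, both upstream and in the increased class. The nearer one, chr13:111183052-111183151, was 2151 bp from the TSS and held the site with 2 mismatches. Its number was 5524, with 74.8% of peaks showing a larger fold change. The farther one, chr13:111158412-111158511, was 26791 bp upstream and 11081 bp from *Gapt*, with number 1556 and no adjoining pair of decamers with intact cores. As at *Btg2*, the peak with the site had the smaller fold change of the pair.
*Plk2* upstream peak, chr13:111183052-111183151: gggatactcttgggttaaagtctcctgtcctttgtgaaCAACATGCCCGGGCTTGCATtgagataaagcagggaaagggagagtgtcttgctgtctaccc

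*Plk3* (chr4:116801260-116806568, minus strand) had 2 peaks and a site at neither. Its promoter peak, chr4:116806603-116806702, was centred 84 bp upstream of the TSS at 116806568 and had number 7329, so that 0.745% of all peaks had a smaller fold change. It was classed as reduced, a class found within 10 kb of 3.34% of protein-coding genes. It is shown because it is the reduced peak at the promoter of an arrest gene, with the GC box CCGCCC in capitals.
*Plk3* promoter peak, chr4:116806603-116806702: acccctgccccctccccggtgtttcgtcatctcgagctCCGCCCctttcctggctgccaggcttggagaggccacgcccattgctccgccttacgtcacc
The closest pair of decamers had 7 mismatches, GC content was 61.2% and the CpG ratio was 0.78. The other *Plk3* peak, 8193 bp downstream, lay in exon 1 of *Btbd19*, 52 bp from its TSS, with number 1311 in the increased class and no site (9 mismatches). The related kinases *Plk2* and *Plk3* therefore differed in where their nearest peak stood in the order, at 5524 and 7329, and in whether it had a site.

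The GC box GGGCGG, searched on both strands within 100 bp of the centre, was present in both reduced peaks, against 82.7% of the reduced peaks of the list. It was in 1 of the 3 little changed peaks, against 28.8%, in 2 of the 10 increased peaks, against 9.34%, and in 5 of all 15, against 15.5% of all peaks. The longer SP1 sequence GGGGCGGGG, which shares most of its letters with the GC box, was in 0 of the 15, against 4.13% of all peaks. Of the 2 reduced peaks 0 had a site, against 1.03% of that class. Of the 10 increased peaks 3 had a site, against 59.6%. Over all 15 peaks, 7 lay within 1 kb of a protein-coding TSS, against 17.3%, but the peaks were chosen for lying near TSSs and nothing is read from this share. Of the 15, 5 had a CpG ratio of at least 0.6 with a GC content of at least 50%, against 11.6%. The median GC content was 57.2%, against 48.8% over all peaks, and the part of nearness to TSSs in both of these differences was not tested. Among peaks within 1 kb of a TSS, 3 of the 7 near the arrest genes had a site, against 17.6%, and 2 of them had at most 1 mismatch, against 2.89%. These 2 were the promoter peaks of *Cdkn1a* and *Gtse1*. Farther from TSSs, 3 of 8 had a site, against 62.2%.

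**Figure D3:**
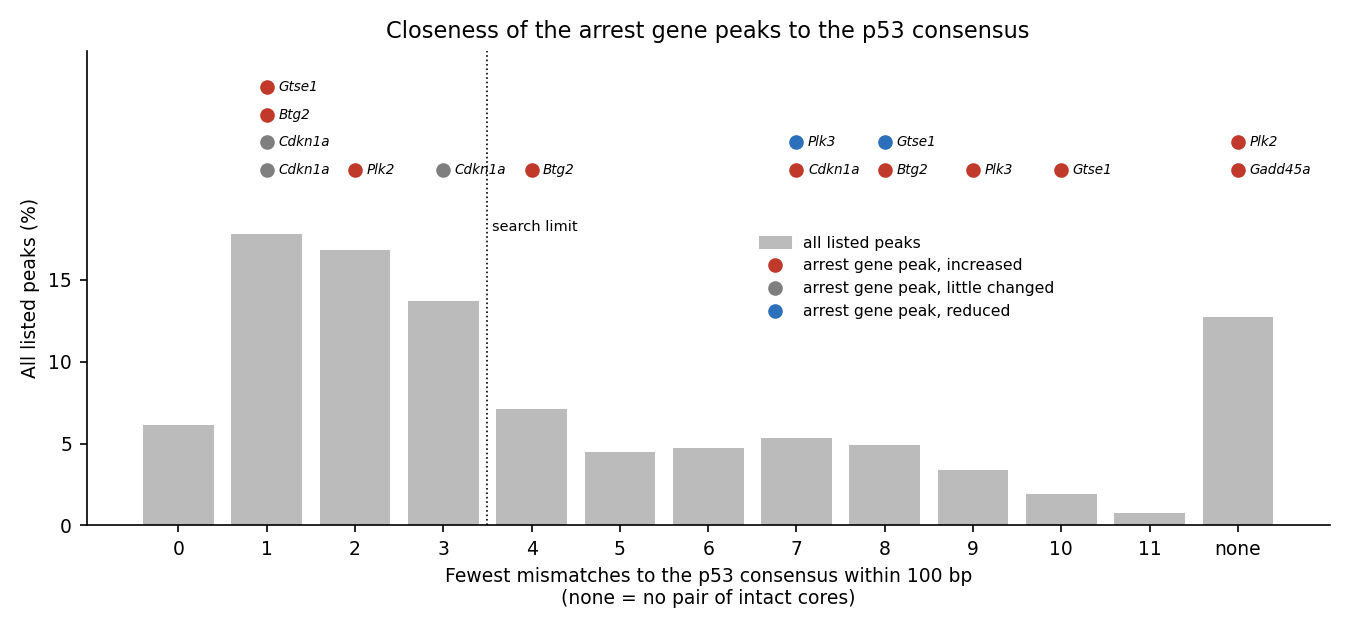
Bars give the percent of all 7384 listed peaks by the fewest mismatches of an adjoining pair of decamers with intact cores within 100 bp of the centre, and points give the 15 arrest gene peaks, coloured by class and stacked without a scale. The 6 peaks left of the dotted line have a site, 4 of them with 1 mismatch.

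Peaks with a site and peaks without one occupied different parts of the order. The 6 with a site had numbers from 2798 to 6703, with a median of 6096.5. The 9 without stood on both sides of these. Their increased peaks had numbers from 62 to 1556 and their reduced ones 7089 and 7329, with a median of 1311.0 over all 9. At each of *Cdkn1a*, *Btg2*, *Gtse1* and *Plk2*, the increased peaks without a site had smaller numbers, and so larger fold changes, than the peaks with one. Most of these increased peaks lay nearer to another gene, namely numbers 62, 356, 640 and 1556, while 1317 lay at the *Btg2* promoter. Of the 15 peaks, 3 were in the first 10% of the numbering, where 9.99% of all peaks are by construction, and 5 in the last 10% (10.0%). The 6 arrest gene peaks in the first 20% of the numbering, at *Btg2*, *Cdkn1a*, *Gtse1*, *Gadd45a* and *Plk3*, all lacked an adjoining pair within the limit. The whole list was also cut into 10 equal stretches of the numbering. There the share with a site was 45.9% in the first stretch, 52.0% in the second, 70.5% in the last but one and 8.12% in the last. The lowest and highest numbers among the 15 were both without a site, and over all 15 the median number was 2798.0, against 3692.5 over all peaks.

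In 3 of the 15 peaks, all of them without an adjoining pair, a pair with 1 base between the decamers and 2 mismatches was found. This spacing was looked at after the peaks had been seen. They are shown to compare them with the adjoining pairs above, with the cores in capitals.
*Cdkn1a*, in *Rab44*, chr17:29277803-29277823: ggaCgtGctcacgaCatGccc
*Btg2* upstream, chr1:136001301-136001321: aggCatGcctcatgCttGcgc
*Gadd45a* downstream, chr6:66979008-66979028: agaCatGtacatgaCatGtct
The peaks were numbers 356, 62 and 983, all in the first 20% of the order. In the list, 5.50% of peaks had a pair with this spacing and at most 2 mismatches and no adjoining one (406 of 7384, interval 5.00% to 6.04%). This share was 9.08% and 8.13% in the first and second 10% of the numbering, where these 3 peaks lie, and 0% in the last. Of windows 10 kb before the peaks, 0.230% had a pair with this spacing and at most 2 mismatches. Spacers of up to 13 bases with at most 3 mismatches gave a pair where the unspaced search had found none in 6 of the 15 peaks, against 18.3% of all peaks. In the windows 10 kb before the peaks, spacers of 0 to 13 bases gave a pair in 11.2%.

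**Figure D4:**
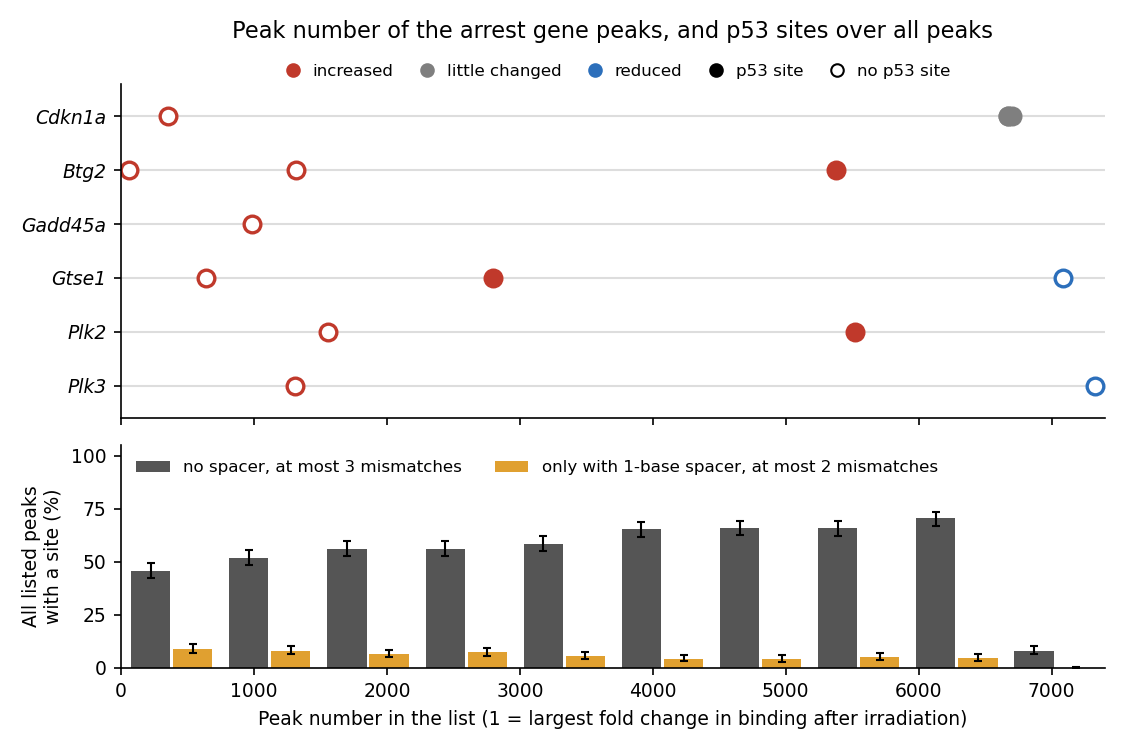
The upper panel places the 15 arrest gene peaks by their number in the list, where 1 is the largest fold change in binding after irradiation, with colour for the class and filling for a p53 site. The lower panel gives, per 10% of the numbering, the percent of all listed peaks with an adjoining pair of decamers (grey) and of those with a pair only at a spacer of 1 base (orange), with 95% Wilson intervals. Filled points lie to the right of the open points of the increased class at each gene that has both.

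Sites of the genome were also counted from the other side, asking which ones near the arrest genes had a peak. Within 50 kb of their TSSs there were 0 sites without a mismatch, 4 with 1 mismatch and 9 with 2. All 4 with 1 mismatch had a peak centre within 100 bp, 2 at *Cdkn1a* and 1 each at *Btg2* and *Gtse1*, against 35.2% of the 4040 such sites on the chromosomes of the list (interval 33.7% to 36.7%). Of the 9 with 2 mismatches, only the one at *Plk2* had a peak, against 9.0% of 21007. A second site with 2 mismatches lay 640 bp upstream of *Plk2*, nearer to the TSS than the one with a peak and 1510 bp from the peak centre, and had no listed peak of its own. *Gadd45a* had a site with 2 mismatches 5538 bp upstream, 13964 bp from the nearest peak, and *Plk3* had one 21388 bp downstream, also without a peak. None of the 15 peaks resembled another peak of the list over at least 100 bp at 80% identity. Likeness over shorter stretches was not counted.

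The genes of related function were read in the same way. Of 12 members of the same protein families, 8 had a peak within 50 kb and 2 within 10 kb. These were *Cdkn1b*, which encodes the kinase inhibitor p27, with a peak 5585 bp upstream (number 1159, increased, site with 3 mismatches), and *Btg1*, with a peak 4581 bp downstream in exon 2 (number 106, increased, site with 2 mismatches). Of 16 cyclins, cyclin-dependent kinases and other proteins on which the arrest proteins act, 10 had a peak within 50 kb and 5 within 10 kb. The G1/S cyclins *Ccnd2* and *Ccne1* had reduced peaks without a site at 1535 and 84 bp (numbers 6922 and 7032), and *Pcna*, the replication clamp, had one at 2359 bp (number 7201) that lay nearer to another gene. *Ccnd3* had a little changed peak without a site in intron 1 at 3086 bp (number 6793), and *Ccne2* had an increased one with a site of 2 mismatches at 7018 bp (number 3579). Of 8 other genes linked to p53-dependent arrest, 5 had a peak within 50 kb and 4 within 10 kb. *Ccng1*, the cyclin G1 gene, resembled *Cdkn1a* in having a little changed peak with a site of 1 mismatch, 156 bp upstream (number 6644), although this number is closer to the limit of the increased class than those of the *Cdkn1a* peaks. *E2f7*, a repressor of E2F targets, and *Trp53inp1*, a p53-induced nuclear protein, had increased peaks without a site at 416 and 164 bp (numbers 3389 and 6513), and *Ptprv*, a receptor-type phosphatase, had an increased peak with a site of 2 mismatches at 3441 bp (number 3984). These counts stand beside 40.4% of protein-coding genes within 50 kb and 15.6% within 10 kb, and were not tested.

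Genes most like each arrest gene were looked up by 4 features, namely the number of peaks within 50 kb, the distance and number of the nearest peak, and its fewest mismatches, over the 9035 protein-coding genes with a peak. *Eng* was most like *Cdkn1a*, with 4 peaks, the nearest at 61 bp with number 6036 and 1 mismatch (distance 0.32 SD), followed by *Pgpep1* (0.49 SD). For *Btg2* these were *Cpne2* (0.20 SD) and *Icam1* (0.36 SD), for *Gadd45a* *Tbx15* (0.05 SD) and *Lim2* (0.08 SD), and for *Gtse1* *Wdr8* (0.47 SD) and *Rab21* (0.59 SD). For *Plk2* they were *Zmynd8* (0.02 SD) and *Uchl4* (0.18 SD), and for *Plk3* *Tfip11* (0.07 SD) and *Bmp2k* (0.12 SD). The likeness covers the arrangement of peaks alone.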

How the data were processed

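The authors mapped reads to mm9 with Bowtie 1.0.0, called p53 peaks with MACS 1.4.1 (control: input DNA) and deposited a single list, in which each peak of 100 bp has a position and a peak number but no signal. How peaks of several libraries were merged is not given in the sources used here, and the H3K27ac library was not analysed here. Peak numbers were read as the order of fold change after irradiation given by the paper, and class limits follow from its class sizes. Members and gene lists were chosen with earlier results of these data known.

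TSSs came from GENCODE M1 and sequence from NCBIM37, the same build. The centre is the middle of each window. Positions count from 1. The p53 consensus was searched without a spacer, with at most 3 mismatches in 20 positions. Similar sequences were sought with BLAST+ 2.17.0 (word size 11). Intervals are 95% Wilson intervals and cover counting error over peaks, genes or sites only. No test between conditions was possible. The search and the assignment of peaks to genes were tested on simulated data. Genes named were the members, genes nearest to their peaks, genes of the fixed lists with a peak within 10 kb, and the 2 genes most like each member. *Celsr1*, which spans a peak, falls outside this rule and was named after its values were seen. The alternatives were other distance limits, TSS sets, merging of peaks and site definitions. The scripts ran under samtools 1.23.1, pysam 0.24.0 and Python 3.11.15, with SciPy 1.17.1 and NumPy 2.4.6 for numbers and matplotlib 3.10.9 for plots.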

Additional observations from a re-analysis of the deposited data

How the results depend on the processing

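The 6 arrest genes all kept a peak at every distance limit from 10 to 200 kb, and 4 and 5 of them had one within 1 and 5 kb. The number of their peaks was 5, 6, 8 and 9 within 1, 5, 10 and 20 kb, and 25 within 200 kb, and the share of protein-coding genes with a peak was 6.13%, 10.7%, 15.6%, 23.0%, 57.8% and 75.1% within 1, 5, 10, 20, 100 and 200 kb. That share was 39.1% with TSSs of protein-coding transcripts, 37.7% with the outermost TSS of each gene and 35.2% over genes of every annotated type. Peaks of the arrest genes with a site numbered 3 within 1 kb, 10 within 200 kb and 12 with a spacer of 0 to 13 bases. The share of all peaks with a site was 40.8% with at most 2 mismatches, 61.5% with at most 4, 72.7% with the spacer, 51.5% within 50 bp of the centre and 65.4% with mismatches at any position. Genes with 3 or more little changed peaks numbered 0 within 10 kb, 6 within 100 kb, 13 within 200 kb, 3 with the class widened by 100 places and 5 when the last 10% of the numbering replaced the class, alternatives added after the data were seen. Merging neighboring peaks changed neither the number of peaks near the arrest genes nor the number of these genes with a peak. No paired analysis was possible because there was 1 library per condition. Depth is unknown, and binding below the calling threshold of the authors does not appear in the list.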

Other observations

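Between 50 and 200 kb from the arrest genes there were 10 further peaks, 1 of them within 100 kb. *Gadd45a*, which had no site at its nearest peak, had a pair of increased peaks 110455 and 113359 bp upstream, with numbers 1308 and 4893, and *Gadd45a* was the nearest protein-coding gene to both. Both held an adjoining pair of decamers, shown with the cores in capitals.
*Gadd45a* far upstream, chr6:67097895-67097914, 1 mismatch: gaaCatGcatggaCttGctt
*Gadd45a* far upstream, chr6:67100791-67100810, 2 mismatches: tggCatGtccaaaCatGcac
*Cdkn1a* had a further increased peak 62019 bp downstream (number 4489, site with 3 mismatches), which was nearer to *Cpne5*. Up to 200 kb the 6 genes had 25 peaks, 10 of them with a site.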
